A study of Mus musculus with 8 samples.

Results

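The 8 genes described here are the core of retinoic acid synthesis and reception: the retinal dehydrogenase genes Aldh1a1, Aldh1a2 and Aldh1a3, the retinoic acid receptor genes Rara, Rarb and Rarg, the retinoic acid binding protein gene Crabp1 and the retinol uptake receptor gene Stra6. They were taken by name from the 27179 genes of a raw count table, and all 8 were found. The genes and the gene lists below were chosen with earlier results of these data known. The table holds bulk RNA-seq of cells sorted from tumor-bearing mouse lungs, with 4 libraries of strongly labeled cells (QZ1-hi) and 4 of weakly labeled cells (QZ1-lo). The mice were C57BL/6 animals (C57BL/6J in the study's methods), 18 to 22 weeks old, whose Eml4 and Alk genes had been joined 11 to 12 weeks earlier by adenoviral delivery of Cas9 with guide RNAs. All of them had received 4.5 nmol of the quenched probe QZ1-(PEG2K) intravenously 2 h before the lungs were taken, so both populations share the tumors and the probe. QZ1 carries the fluorophore Cy5, which lights up and binds nearby cells once proteases cut the probe. Live cells without CD45 and CD11b, surface proteins of blood cells, were gated on QZ1 signal against the epithelial protein EpCAM, and each library was made from at least 100000 cells. The sorted populations are therefore mixtures of cell types defined by probe signal, and the purity of the fractions was not measured directly.

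Retinoic acid is made from vitamin A inside cells. Retinol is taken up through Stra6 in some tissues, stored as esters, oxidized reversibly to retinal by alcohol and retinol dehydrogenases, and then oxidized irreversibly to retinoic acid by the Aldh1a enzymes. Retinoic acid binds the RAR receptors, which sit on DNA with RXR partners and switch target genes on when the ligand arrives, while Cyp26 enzymes degrade it. In the lung the pathway is known for its part in the formation of the lung bud and of alveoli. Aldh1a1 is known from airway epithelium and Aldh1a2 from embryonic mesoderm and mesothelium, so producing and responding cells need not be the same.

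Total counts were 18380918 to 26847938 per library, and mitochondrial ribosomal RNA took 39.5 to 58.4% of the counts in QZ1-hi and 30.2 to 47.3% in QZ1-lo. Values below are CPM, which are counts divided by the library size after TMM scaling, on which 3 counts in a library stand for 0.0894 to 0.179 CPM. This floor covers counting error only. The populations differed widely in cell type markers, each list being given as its summed level. The 9 endothelial markers summed to 966 to 2290 CPM in QZ1-hi and 69.2 to 299 CPM in QZ1-lo, and the 9 fibroblast markers to 1724 to 3397 and 43.9 to 377 CPM. The 6 club cell markers ran the other way, at 364 to 1047 CPM in QZ1-hi and 1493 to 4127 CPM in QZ1-lo, as did the 6 ciliated cell markers at 70.0 to 207 and 328 to 628 CPM. Markers of alveolar type 2 cells were abundant in both populations, at 6210 to 11427 and 4559 to 7177 CPM. Immune markers summed to 2943 to 6301 and 2141 to 4172 CPM despite the gate. Most of that sum was Lyz2, at 2696 to 5763 CPM in QZ1-hi and 1895 to 3761 CPM in QZ1-lo. Ptprc, the gene of CD45, was at 71.4 to 222 and 93.4 to 161 CPM. None of the listed marker genes was at 0 across the 8 libraries.

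The first question was which of the 8 genes differed between cells strongly and weakly labeled by the probe. No source ties a library of one population to one of the other, so the tests were unpaired. Both populations were gated from suspensions of tumor-bearing lungs, so libraries of the populations may come from the same mice. The unpaired tests, and the permutation tests below, ignore any such sharing. Aldh1a1 was lower and Aldh1a3 was higher in QZ1-hi in the quasi-likelihood test of edgeR, with p-values adjusted by the Benjamini-Hochberg method over all genes tested and a threshold of 0.05. Of the 8 genes, 7 passed the filter on low counts and Crabp1 did not, and 5 of the 7 were not called in either direction. Among all 15583 genes tested, 9.88% were called higher and 8.21% lower, so 1 call in each direction among 7 genes is close to that background. DESeq2 also called Aldh1a3 higher and Aldh1a1 lower and no other member, against 10.4% of all genes higher and 8.98% lower. At an unadjusted p under 0.05 there were 3 higher and 1 lower of the 7, against 2403 and 2106 of all genes. The 7 genes had a median log2 fold change (QZ1-hi over QZ1-lo) of 0.42, and all genes tested one of 0.02. Aldh1a3 was also the single member whose libraries did not overlap between the populations, which was the case for 11.9% of all genes in the higher and 10.7% in the lower direction.

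**Figure D1:**
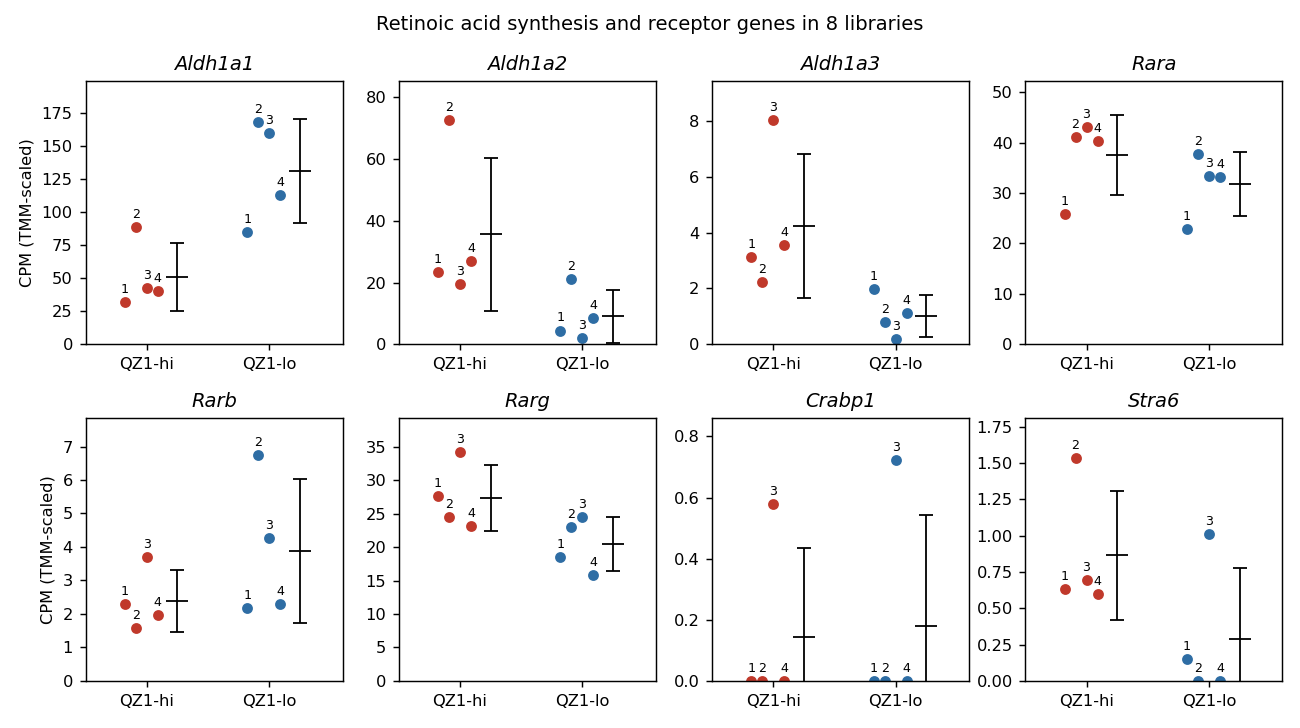
Each panel plots the level of 1 gene in CPM for the 4 QZ1-hi libraries (red) and the 4 QZ1-lo libraries (blue), numbered by replicate, with the mean and SD beside them and error bars cut off at 0. Aldh1a1 lies at 31.9 to 88.9 CPM in QZ1-hi and 85.1 to 168 CPM in QZ1-lo, Aldh1a3 separates the populations completely, and Rara and Rarg largely overlap.

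Aldh1a1 was the most abundant of the 3 synthesis genes by CPM and the one that was lower in QZ1-hi cells. The gene (Entrez 11668) spans chr19:20492715-20643465 on the plus strand of GRCm38, the assembly called mm10, with 4937 exonic bases. Its level was 31.9, 88.9, 42.5 and 40.2 CPM in QZ1-hi replicates 1 to 4, and 85.1, 168, 160 and 113 CPM in QZ1-lo replicates 1 to 4. QZ1-hi replicate 2 stood above QZ1-lo replicate 1, so the populations overlapped by that pair. The means were 50.8 ± 25.7 and 132 ± 39.4 CPM (SD, n = 4 each), which edgeR gave as 2.59-fold lower in QZ1-hi (log2 fold change -1.37, SE 0.32, adjusted p = 0.0110). The call held in each of the 8 fits that left out 1 library, with log2 fold changes of -1.81 to -1.20. Of the 50-base stretches in its exons, 3.06% also occur elsewhere, mostly in Aldh1a7.

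The airway markers moved with Aldh1a1. The summed club cell markers were 364, 1047, 405 and 453 CPM in QZ1-hi replicates 1 to 4 and 1493, 4127, 2833 and 2020 CPM in QZ1-lo replicates 1 to 4, with 5 of the 6 called lower, and 6 of 6 ciliated markers were called lower. Within each population the library with most Aldh1a1, replicate 2, was also the library with most club cell markers. Relative to the summed club cell markers, Aldh1a1 was at 8.49 to 10.5% in QZ1-hi and 4.08 to 5.70% in QZ1-lo, without overlap and in the opposite direction to its CPM. Relative to the summed ciliated markers it was at 27.6 to 45.5% and 25.4 to 30.1%, which overlap. These ratios, like the marker lists set beside Aldh1a2 and Aldh1a3, were chosen after the values were seen. The part of airway cells in the Aldh1a1 difference was not tested. In sorted bulk samples fewer cells of a type and less RNA per cell cannot be told apart, which holds for every gene below.

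Aldh1a2 was higher on average in QZ1-hi cells but did not pass the threshold. The gene (Entrez 19378) spans chr9:71215789-71296243 on the plus strand, with 2264 exonic bases. Its level was 23.5, 72.6, 19.4 and 26.8 CPM in QZ1-hi replicates 1 to 4 and 4.44, 21.2, 2.14 and 8.43 CPM in QZ1-lo replicates 1 to 4. Replicate 2 was the highest of each population, and QZ1-lo replicate 2 exceeded QZ1-hi replicate 3, so the populations overlapped. The means were 35.6 ± 24.8 and 9.05 ± 8.50 CPM (SD, n = 4 each), a 3.95-fold difference with a log2 fold change of 1.98 (SE 0.63, edgeR adjusted p = 0.0502). The call turned on small choices: limma's voom fit called it (log2 fold change 2.13, adjusted p = 0.0190), DESeq2 did not (1.97, adjusted p = 0.0589), and edgeR called it without QZ1-lo replicate 2 (2.84, adjusted p = 0.00897). Without QZ1-hi replicate 2 the log2 fold change was 1.34 (adjusted p = 0.174).

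Mesothelial markers were highest in the same library of each population as Aldh1a2. Their summed level was 79.1, 361, 52.4 and 95.0 CPM in QZ1-hi replicates 1 to 4 and 19.4, 47.0, 14.3 and 7.12 CPM in QZ1-lo replicates 1 to 4, and 6 of the 6 that could be tested were called higher. The order of the 4 QZ1-hi libraries was the same for both measures. In QZ1-lo it differed, since replicate 4 had the fewest mesothelial markers and more Aldh1a2 than replicates 1 and 3. Aldh1a2 relative to these markers was at 20.1 to 36.9% in QZ1-hi and 15.0 to 118% in QZ1-lo, which overlap. Relative to the fibroblast markers it was at 0.570 to 2.44% and 0.567 to 19.2%, which overlap too. The part of these cells in the Aldh1a2 values was not tested.

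Aldh1a3 was the least abundant of the 3 synthesis genes and was called higher in QZ1-hi cells. The gene (Entrez 56847) spans chr7:66390890-66427517 on the minus strand, with 4617 exonic bases. Its level was 3.14, 2.22, 8.04 and 3.58 CPM in QZ1-hi replicates 1 to 4 and 1.97, 0.814, 0.181 and 1.11 CPM in QZ1-lo replicates 1 to 4. All QZ1-hi libraries stood above all QZ1-lo libraries, although QZ1-hi replicate 2 and QZ1-lo replicate 1 were close. The counts behind these values were low, at 45 to 139 reads per library in QZ1-hi and 5 to 66 in QZ1-lo. The means were 4.24 ± 2.59 and 1.02 ± 0.742 CPM (SD, n = 4 each), a 4.12-fold difference with a log2 fold change of 2.04 (SE 0.64, edgeR adjusted p = 0.0483). DESeq2 gave the same log2 fold change with an adjusted p of 0.00870, and limma did not call it (1.83, adjusted p = 0.0617). With scaling by library size only the Aldh1a3 call was lost (1.59, adjusted p = 0.0711) and Aldh1a2 was called in its place (1.57, adjusted p = 0.0104). Leaving out 1 library kept the call only where that library was QZ1-hi replicate 2 or QZ1-lo replicate 1. Without QZ1-hi replicate 3 the log2 fold change was 1.49 (adjusted p = 0.193).

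The summed endothelial, fibroblast and pericyte markers were highest in the same QZ1-hi library as Aldh1a3, replicate 3, at 2290, 3397 and 68.3 CPM. Single markers of the fibroblast and pericyte lists did not all peak there. Of the single markers, 9 of 9 endothelial, 8 of 9 fibroblast and 2 of 7 pericyte markers were called higher in QZ1-hi. In QZ1-lo the order differed, since replicate 3 had the most of all 3 lists, 299, 377 and 25.5 CPM, and the least Aldh1a3. Aldh1a3 relative to the endothelial markers was at 0.181 to 0.370% in QZ1-hi and 0.0606 to 2.12% in QZ1-lo. Relative to the fibroblast markers it was at 0.0748 to 0.237% and 0.0480 to 2.52%. Both pairs of ranges overlap, and the part of these cells in the difference was not tested.

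**Figure D2:**
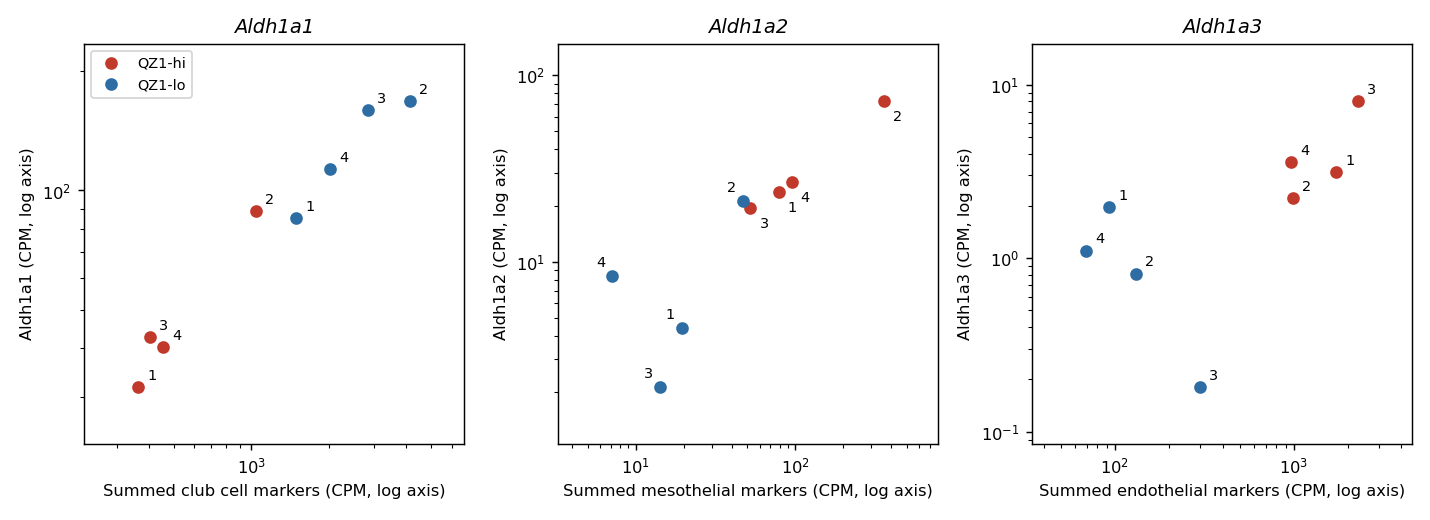
Each panel plots 1 retinal dehydrogenase gene (vertical log axis, CPM) against the summed CPM of 1 marker list (horizontal log axis) for the 4 QZ1-hi libraries (red) and the 4 QZ1-lo libraries (blue), numbered by replicate. Aldh1a1 is low where club cell markers are low, Aldh1a2 is highest in QZ1-hi replicate 2 with the most mesothelial markers (361 CPM), and Aldh1a3 is lowest in QZ1-lo replicate 3.

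Because the 3 dehydrogenases carry out the same oxidation, their make-up within a library is of interest by itself, and a ratio of 2 genes in 1 library does not depend on how libraries are scaled. The log2 ratio of Aldh1a2 to Aldh1a1 counts, with 0.5 added to each, was -0.44, -0.29, -1.13 and -0.58 in QZ1-hi replicates 1 to 4 and -4.25, -2.99, -6.21 and -3.74 in QZ1-lo replicates 1 to 4. No library of one population reached the range of the other. The means, -0.61 ± 0.37 and -4.30 ± 1.38 (SD, n = 4 each), differed by 3.69, or 12.9-fold. The two-sided exact permutation test over the 70 assignments gave p = 0.0286, the smallest value that it allows, and an adjusted p of 0.0571 over the 6 ratios compared, which misses the threshold. The ratio of Aldh1a3 to Aldh1a1 shifted by a similar amount, with log2 values of -5.31 to -2.40 in QZ1-hi and -9.65 to -5.42 in QZ1-lo. Its means differed by 3.72, or 13.1-fold (exact permutation p = 0.0286, adjusted p = 0.0571). The ratio of Aldh1a2 to Aldh1a3 had means of 3.02 ± 1.54 and 3.05 ± 1.45 (SD, n = 4 each), a difference of -0.03 that was smaller than the spread between libraries (exact permutation p = 0.914) and changed sign, to 0.07, with 2 counts added.

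Scaled by exonic length, Aldh1a1 made up 36.8, 35.6, 45.5 and 39.2% of the summed level of the 3 genes in QZ1-hi replicates 1 to 4, and 87.8, 78.1, 97.1 and 85.2% in QZ1-lo replicates 1 to 4. Aldh1a2 made up 45.3 to 63.4% in QZ1-hi and 2.83 to 21.5% in QZ1-lo. Aldh1a3 contributed 0.953 to 9.21% in QZ1-hi and 0.117 to 2.17% in QZ1-lo. By this scaling, synthesis gene transcripts were mostly Aldh1a1 in every QZ1-lo library and split between Aldh1a1 and Aldh1a2 in every QZ1-hi library. The exonic length joins the exons of all annotated transcripts of a gene, 4937 bases for Aldh1a1 and 2264 for Aldh1a2. The split in QZ1-hi depends on these lengths. In counts without length scaling, Aldh1a1 exceeded Aldh1a2 in every library of both populations. The shares describe the same counts as the ratios and were not tested again.

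**Figure D3:**
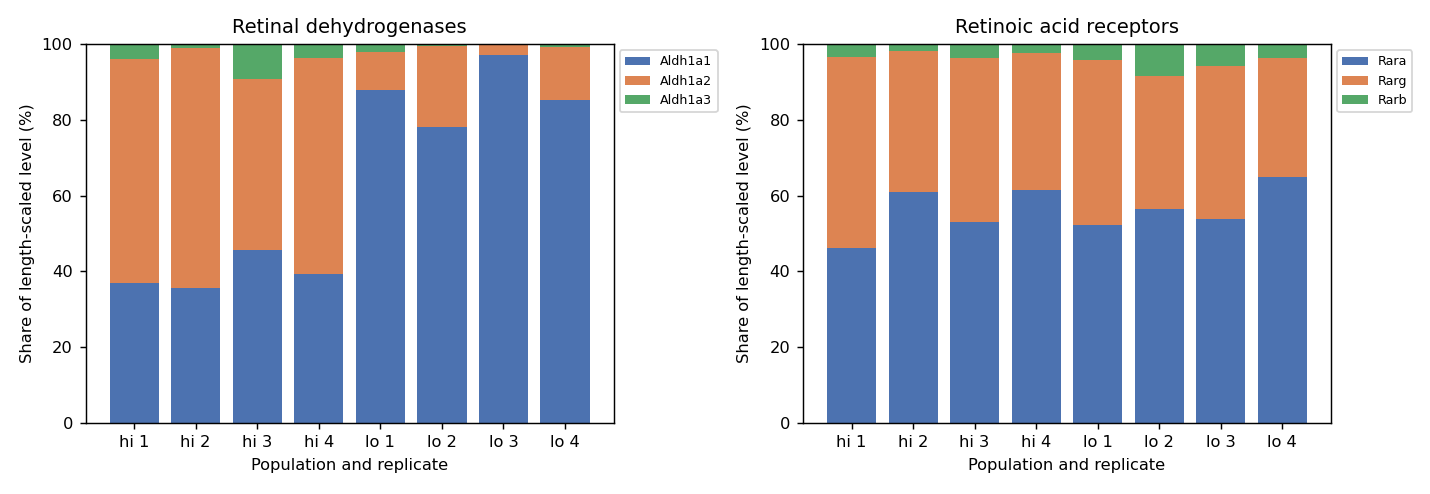
Stacked bars show, for each of the 8 libraries, the percentage of the length-scaled level held by each of the 3 retinal dehydrogenase genes (left) and each of the 3 receptor genes (right). Aldh1a1 holds 35.6 to 45.5% in QZ1-hi and 78.1 to 97.1% in QZ1-lo, while Rara holds 46.2 to 61.5% of the receptor level in QZ1-hi and 52.3 to 64.8% in QZ1-lo.

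The receptors showed no called difference in the unpaired test. Rara (Entrez 19401, chr11:98927818-98974942, plus strand, 4365 exonic bases) was at 25.8, 41.0, 43.1 and 40.4 CPM in QZ1-hi replicates 1 to 4 and 22.8, 37.7, 33.5 and 33.2 CPM in QZ1-lo replicates 1 to 4. Replicate 1 was the lowest of each population and the ranges overlapped. The means were 37.6 ± 7.91 and 31.8 ± 6.33 CPM (SD, n = 4 each), with a log2 fold change of 0.24 (SE 0.19, edgeR adjusted p = 0.472) that became -0.23 when libraries were scaled by size only. Under that scaling the median over all genes was -0.44. Rarg (Entrez 19411, chr15:102234938-102257517, minus strand, 4261 exonic bases) was at 27.6, 24.4, 34.2 and 23.1 CPM in QZ1-hi and 18.5, 23.0, 24.5 and 15.8 CPM in QZ1-lo, in the same order of replicates. The populations overlapped, as QZ1-lo replicate 3 exceeded 2 QZ1-hi libraries. Its log2 fold change was 0.42 (SE 0.18, edgeR unadjusted p = 0.0416, adjusted p = 0.152), and -0.01 with scaling by library size only.

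Rarb, itself a classic retinoic acid target, was the scarcest receptor gene. Its gene (Entrez 218772) spans chr14:16430839-16819156 on the minus strand, with 5265 exonic bases. Its level was 2.29, 1.58, 3.70 and 1.97 CPM in QZ1-hi replicates 1 to 4 and 2.18, 6.75, 4.27 and 2.29 CPM in QZ1-lo replicates 1 to 4. The ranges overlapped and the difference was not called (log2 fold change -0.70, SE 0.45, edgeR adjusted p = 0.353). The Rarb exons overlap those of Top2b, a DNA topoisomerase gene, and of Gm48162 on the opposite strand, and 34.1% of the 50-base stretches of Rarb also occur in another gene, mostly Top2b. The kit was stranded, but the strand setting of the counting is not given in the sources used here, so the values of Rarb are uncertain. Top2b itself was far more abundant and did not pass the test, at 91.0 ± 5.64 and 96.6 ± 4.59 CPM (SD, n = 4 each; log2 fold change -0.09, SE 0.10, edgeR adjusted p = 0.656).

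Within libraries, Rarb was lower relative to Rarg in every QZ1-hi library than in any QZ1-lo library, with mean log2 count ratios of -3.56 ± 0.30 and -2.53 ± 0.56 (SD, n = 4 each). The difference of -1.03 had an exact permutation p of 0.0286 and an adjusted p of 0.0571 over the 6 ratios. The ratio of Rarb to Rara differed by -0.84 (exact permutation p = 0.114, adjusted p = 0.171) and that of Rarg to Rara by 0.19 (p = 0.543, adjusted p = 0.651). In both of these ratios the libraries of the populations overlapped. By length-scaled level, Rara held 46.2 to 61.5% of the receptor transcripts in QZ1-hi and 52.3 to 64.8% in QZ1-lo, Rarg 36.0 to 50.5% and 31.5 to 43.5%, and Rarb 1.94 to 3.78% and 3.70 to 8.37%.

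RAR and RXR dimers are known to bind direct repeats of a short hexamer, and the Rarb promoter carries the best known of them. RefSeq promoter windows of GRCm38.p6, from 250 bases before to 50 after each start site, were searched on both strands for 2 hexamers in the same orientation, each being AGGTCA (the consensus) or a variant of it (AGTTCA as well as GGTTCA and also GGGTCA), and 1, 2 or 5 bases apart. Of 32851 windows, 0.222% held such a repeat with a spacer of 1, 0.268% with 2 and 0.0974% with 5. Windows were found for 7 of the 8 genes, all but Aldh1a3, and of these only Rarb had a match. Of 33 other retinoid pathway genes with a window, 2 had one, Cyp26a1 with a spacer of 5 and Bco1, a carotene-cleaving enzyme gene, with a spacer of 1. The 100 bases before the start site are shown for both genes with a spacer of 5, the receptor gene and the gene of the degrading enzyme, in the direction of transcription and with the repeat in capitals.
Rarb, chr14:16575477-16575576, minus strand: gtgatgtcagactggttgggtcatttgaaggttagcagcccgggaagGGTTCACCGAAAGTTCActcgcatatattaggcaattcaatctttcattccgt
Cyp26a1, chr19:37697708-37697807, plus strand: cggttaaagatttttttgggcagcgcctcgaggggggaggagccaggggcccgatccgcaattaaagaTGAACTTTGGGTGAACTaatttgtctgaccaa
The Rarb repeat lies at -53 to -37 from the start site. The Cyp26a1 repeat lies at -32 to -16, and its hexamers read on the opposite strand. Neither gene was called higher in QZ1-hi: Rarb was at 1.58 to 6.75 CPM over the 8 libraries, and Cyp26a1 had 13 counts in QZ1-lo replicate 1 and 0 in the other libraries and was not tested.

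Stra6 and Crabp1 were close to the limit of detection. Stra6 (Entrez 20897, chr9:58063788-58153996, plus strand, 5829 exonic bases) had 15, 31, 12 and 10 counts in QZ1-hi replicates 1 to 4 and 5, 0, 28 and 0 in QZ1-lo replicates 1 to 4. Every QZ1-hi library had reads, but QZ1-lo replicate 3 exceeded QZ1-hi replicates 1, 3 and 4, and no call was made (log2 fold change 1.55, SE 1.16, edgeR adjusted p = 0.436). limma, which down-weights libraries that deviate, called it (3.79, adjusted p = 0.0423), and edgeR without QZ1-lo replicate 3 gave 3.85 (adjusted p = 0.0548). Crabp1 (Entrez 12903, chr9:54764748-54773110, plus strand, 802 exonic bases), whose product binds retinoic acid in the cytoplasm, had 10 counts in QZ1-hi replicate 3, 20 in QZ1-lo replicate 3 and 0 in the other 6 libraries. At this depth no difference in Crabp1 was detectable.

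Per kilobase of exon, the order of the 8 genes differed between the populations. The order depends on the exonic lengths, which join the exons of all annotated transcripts of a gene. In QZ1-hi the levels ran from Aldh1a2 (15.7 ± 11.0 CPM per kb, SD, n = 4) over Aldh1a1 (10.3 ± 5.22), Rara (8.61 ± 1.81) and Rarg (6.42 ± 1.16) to Aldh1a3 (0.919 ± 0.561), Rarb (0.453 ± 0.176), Crabp1 (0.180) and Stra6 (0.148). Only Rarg stood above its next neighbor without overlap of the 4 libraries, so the order of the first 4 genes was not resolved. In QZ1-lo Aldh1a1 came first at 26.6 ± 7.98 CPM per kb and stood above all libraries of the next gene, Rara (7.28 ± 1.45). Rarg (4.80 ± 0.946), Aldh1a2 (4.00 ± 3.76), Rarb (0.736 ± 0.408), Crabp1 (0.226), Aldh1a3 (0.220 ± 0.161) and Stra6 (0.0498) followed, each overlapping its neighbor.

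The rest of the pathway was described by 48 further genes in lists by role, which were drawn up with earlier results of these data known. Of these, 32 passed the filter, 8 were called higher in QZ1-hi and 0 lower by edgeR, against 9.88 and 8.21% of all genes. At an unadjusted p under 0.05 there were 9 higher and 2 lower, DESeq2 called 9 and 1, and limma called 8 and 0. The median log2 fold change of the 32 genes was 0.15. The calls were uneven over the roles: 5 of 6 tested response genes, 2 of 5 genes of retinol transport and storage and 1 of 11 genes converting retinol and retinal were higher. None of the tested genes of retinoic acid binding (1), its oxidation (1), the RXR partners (2) or the coregulators (6) was called, although 2 of these 10 had an unadjusted p under 0.05, Cyp26b1 on the higher and Ncoa2 on the lower side. Limma called none of them, and DESeq2 called none but gave Cyp26b1 no adjusted p.

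Among the genes that handle retinol, Adh1 differed most. Adh1, an alcohol dehydrogenase that also oxidizes retinol, was at 7.95 to 29.9 CPM in QZ1-hi and 0.0596 to 0.692 CPM in QZ1-lo, with 1102 counts in all against 34. The populations lay far apart, 46.2-fold in the edgeR fit (log2 fold change 5.53, SE 0.70, adjusted p = 0.000500). In QZ1-lo replicates 1 and 4 Adh1 had 2 counts each, under the floor of 3 counts, so the size of the fold is uncertain. Lrat, the enzyme gene for storage of retinol as esters, was at 6.45 ± 3.10 and 2.19 ± 1.33 CPM (SD, n = 4 each; log2 fold change 1.55, SE 0.47, edgeR adjusted p = 0.0404). The Lrat libraries overlapped, as QZ1-lo replicate 3 exceeded QZ1-hi replicate 1. The Lrat call was lost with scaling by library size only and without QZ1-hi replicates 2 or 3 or QZ1-lo replicates 1, 2 or 4 (adjusted p up to 0.138).

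Rdh10 and Dhrs3, enzymes that interconvert retinol and retinal, were not called. Rdh10, which oxidizes retinol to retinal, was at 10.2 ± 3.09 CPM in QZ1-hi and 17.1 ± 4.42 CPM in QZ1-lo (SD, n = 4 each; log2 fold change -0.74, SE 0.26, edgeR adjusted p = 0.0735), and DESeq2 called it lower. Dhrs3, which reduces retinal back to retinol, was at 54.0 ± 12.1 and 51.3 ± 8.13 CPM (log2 fold change 0.07, SE 0.17, edgeR adjusted p = 0.836). Cyp26b1, which degrades retinoic acid, was at 9.28, 5.04, 104 and 4.95 CPM in QZ1-hi replicates 1 to 4 and 1.04, 0.692, 10.4 and 1.64 CPM in QZ1-lo replicates 1 to 4. Replicate 3 was by far the highest of each population, QZ1-lo replicate 3 exceeded the other QZ1-hi libraries, and no call was made (log2 fold change 3.16, SE 1.14, edgeR adjusted p = 0.0825). Over the alternatives the log2 fold change of Cyp26b1 ran from 0.89 without QZ1-hi replicate 3 (adjusted p = 0.551) to 4.77 without QZ1-lo replicate 3, and it was called in the latter and with scaling by library size only. The summed endothelial, fibroblast and pericyte markers were also highest in replicate 3 of each population. Cyp26b1 was at 0.506 to 4.55% of the endothelial sum in QZ1-hi and 0.528 to 3.49% in QZ1-lo, and the part of these cells was not tested.

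The response list holds genes that retinoic acid can raise in other systems, and 4 of them were well apart between the populations. Meis1 and Meis2, homeobox partners of Hox proteins, were at 22.0 ± 5.61 against 1.84 ± 1.43 CPM (log2 fold change 3.59, SE 0.43, edgeR adjusted p = 0.000394) and 10.6 ± 5.56 against 1.41 ± 1.38 CPM (2.91, SE 0.76, adjusted p = 0.0207). Rarres2, the gene of the secreted chemoattractant chemerin, was at 33.8 ± 17.5 and 3.95 ± 2.38 CPM (3.10, SE 0.46, edgeR adjusted p = 0.00100). Hoxa5, a homeobox gene of the lung mesenchyme, was at 9.60 ± 3.47 and 1.62 ± 0.625 CPM (2.57, SE 0.38, edgeR adjusted p = 0.000972). None of these 4 genes, of 6 tested in the list, overlapped between the populations. Among all genes tested, 11.9% did not overlap in the higher direction. Of the calls of these 4 genes, that of Meis2 was lost without QZ1-hi replicate 3 (edgeR adjusted p = 0.0652). Tgm2, a transglutaminase abundant in both populations, was called higher with a small change (0.62, SE 0.18, edgeR adjusted p = 0.0344), a call lost with scaling by library size only and in 6 of the 8 fits without 1 library (all but those without QZ1-hi replicate 2 or QZ1-lo replicate 1). Rarres1 was not called (0.33, edgeR adjusted p = 0.794). These genes are also known from mesenchymal and endothelial cells, whose markers moved the same way, with 8 of 9 fibroblast and 9 of 9 endothelial markers called higher, and the part of those cells in the counts was not tested.

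**Figure D4:**
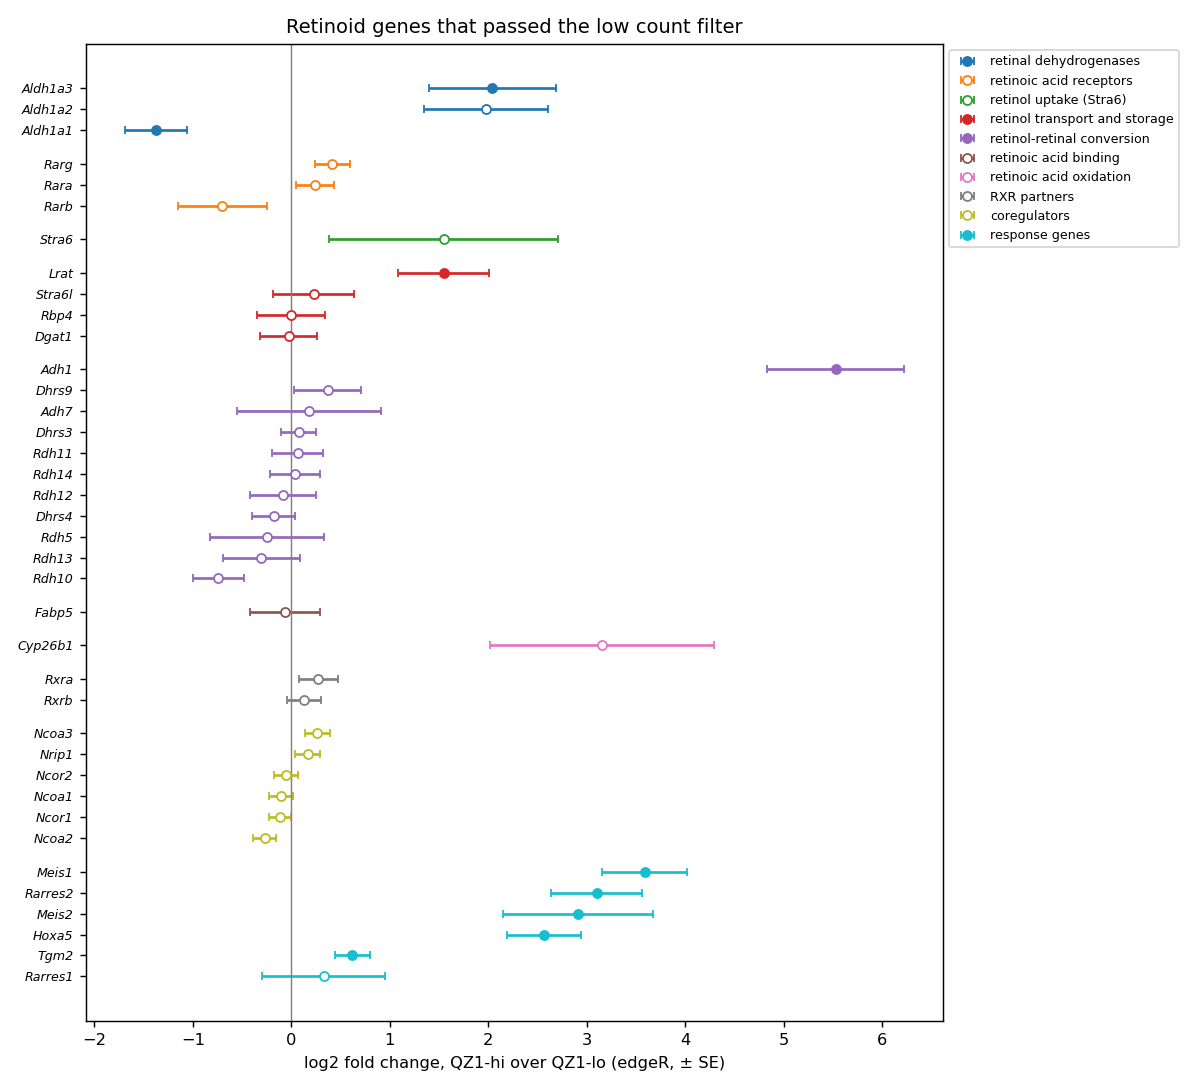
Log2 fold change of QZ1-hi over QZ1-lo with its SE (edgeR, horizontal axis) for retinoid genes that passed the low count filter, grouped and colored by role, with filled points for those at an adjusted p under 0.05. Filled points on the right are Aldh1a3, Lrat, Adh1 and 5 response genes, and Aldh1a1 is the only filled point on the left. The receptors, RXR partners and coregulators are open points, from -0.70 for Rarb to 0.42 for Rarg.

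The receptor partners and coregulators differed little between the populations. Rxra, the main RXR partner, had a log2 fold change of 0.28 (SE 0.20, edgeR adjusted p = 0.408) and Rxrb of 0.13 (SE 0.17, adjusted p = 0.685). The 6 coregulator genes lay between -0.27 for Ncoa2, whose libraries did not overlap, and 0.26 for Ncoa3. Ncoa2 was called lower only with scaling by library size only. Rbp4, the plasma carrier of retinol, differed by less than the spread between libraries (edgeR adjusted p = 0.995).

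Of 15 further aldehyde dehydrogenase genes, outside retinoic acid synthesis or of minor part in it, 14 were tested, 1 was called higher and 2 lower, beside 9.88% and 8.21% of all genes, which is close to that background. Aldh3b1, which acts on lipid aldehydes, was at 26.1 ± 6.63 CPM in QZ1-hi and 51.3 ± 10.2 CPM in QZ1-lo without overlap (log2 fold change -0.98, SE 0.21, edgeR adjusted p = 0.00701). Aldh1a7, the close relative of Aldh1a1 with which it shares sequence, was at 22.1 ± 5.38 and 34.2 ± 5.74 CPM, also without overlap (-0.63, SE 0.19, edgeR adjusted p = 0.0408), but kept the call in only 1 of the 8 fits without 1 library, that without QZ1-hi replicate 2. Aldh2, the mitochondrial enzyme of acetaldehyde oxidation, was higher at 140 ± 25.7 against 92.4 ± 19.6 CPM (0.60, SE 0.17, edgeR adjusted p = 0.0345), a call lost with scaling by library size only and in 6 of the 8 fits without 1 library, those without QZ1-hi replicates 1, 2 or 3 or QZ1-lo replicates 1, 2 or 4.

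The genes whose pattern over the 8 libraries was most like each member were found by the root-mean-square difference of log2(CPM + 0.1), centered on each gene's mean, a measure with no test. Aldh1a1 was matched most closely by Aoc1 (0.135), Rpgr (0.170) and Cyp2s1 (0.176), and 400 tested genes lay within 0.5. Aldh1a2 had few close genes, led by Dpysl5 (0.356), Gata5 (0.444) and Gria3 (0.451), with 4 genes within 0.5, and Aldh1a3 had 3 within 0.5, Steap3 (0.471), H2bu2 (0.487) and Neil3 (0.492). Rara (Mt1 0.103, Svbp 0.106, Scimp 0.116) and Rarg (Rps29 0.0976, H4c6 0.10, Lrch3 0.105) varied so little that 7574 and 7542 genes lay within 0.5. Rarb was nearest to Rpusd3 (0.225), Akr1c14 (0.237) and Smim6 (0.280), and for Stra6 no gene lay within 0.5, the nearest being Mmp10 (0.557), Pcdhb11 (0.559) and Gjb1 (0.573).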

How the data were processed

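Bulk RNA-seq of 4 QZ1-hi and 4 QZ1-lo sorted populations was analysed. The authors deposited raw counts per Entrez gene, made with Rsubread from stranded total RNA libraries (SMARTer kit) and not normalized. The submitters' processing notes name mm10 and DESeq2. The aligner, annotation and strand setting of the counting are not given in the sources used here, and a wrong assignment between overlapping genes would pass into the values. Groups were taken from the sample labels, and replicates were numbered in accession order. Nothing links libraries to single animals. The p-values therefore weigh the difference against the spread between these libraries, which may not be the spread between mice.

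Of 27179 identifiers, 25293 received a symbol. Of 148 listed genes 1 was unmatched (Hbb-bt). Counts were tested in R 4.3.3 with edgeR 4.0.16 (TMM factors 0.660 to 1.35, filterByExpr with minimum count 10 and total 15, common dispersion 0.113, quasi-likelihood test) over 15583 genes with Benjamini-Hochberg adjustment and a threshold of 0.05. SEs were the absolute log2 fold change over the square root of F. For within-library ratios, exact permutation tests (two-sided) were run with scipy 1.17.1. Alternatives were DESeq2 1.42.0, limma 3.58.1 (voom with quality weights), DESeq2 size factors, library size only, other count filters, removal of 48 mitochondrial and ribosomal RNA genes, an adjusted p under 0.01, 2 added counts for ratios and each library left out in turn. The procedure was tested on simulated data. Positions and exonic lengths came from GENCODE M21 on GRCm38, and promoter sequences from RefSeq on GRCm38.p6.

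The members and gene lists were chosen with earlier results of these data known. Named genes were the members, the listed pathway and aldehyde dehydrogenase genes (for each list the called genes with the largest change first, at most 3 per direction, others as chosen after seeing the data) and the 3 most similar genes per member. Top2b was named for its overlap with Rarb. Some listed genes are counted with their lists but not reported here singly.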

Additional observations from a re-analysis of the deposited data

Results flagged for a closer look

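In groups of 4 libraries, a library was singled out when its gap to the nearest of the others relative to the group's range exceeded Dixon's critical value at the 95% level. Of 44 groups checked, 8 were singled out. The 95% level stands for about 1 in 20 only with independent, normally distributed groups. The groups here share libraries, and both Crabp1 groups had reads in 1 library only, so the rate to set beside these 8 is not known. Aldh1a2 was at 72.6 CPM in QZ1-hi replicate 2 and 19.4 to 26.8 CPM in the other QZ1-hi libraries, and Rarres2 in the same library was at 60.0 CPM with the others at 23.1 to 26.6 CPM. Stra6 in that library was at 1.53 CPM, with the others at 0.596 to 0.694 CPM. Rara was singled out on the low side, at 25.8 CPM in QZ1-hi replicate 1 with the others at 40.4 to 43.1 CPM.

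Crabp1 had reads in replicate 3 of each population and nowhere else, at 0.578 CPM in QZ1-hi and 0.724 CPM in QZ1-lo. Stra6 was at 1.01 CPM in QZ1-lo replicate 3 and at 0 to 0.149 CPM in the rest of that population. Meis1 was at 3.99 CPM in QZ1-lo replicate 2 and at 1.07 to 1.19 CPM in the others. The library that stood out for Aldh1a2 was also the one with the most summed mesothelial markers, 361 CPM against 52.4 to 95.0 CPM, and the part of these cells was not tested.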

How the results depend on the processing

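No paired analysis was possible because the replicate numbers follow accession order and no label ties libraries of the populations to the same mouse. Over all genes, 1540 were higher and 1280 lower, becoming 882 and 2509 with scaling by library size only and 902 and 665 at an adjusted p under 0.01. Leaving out 1 library gave 1136 to 1506 and 938 to 1201. Of the members, 1 was higher, Aldh1a3. Aldh1a2 was called in its place with library size only and without QZ1-lo replicate 2 (edgeR adjusted p = 0.00897). The same held with at least 10 counts in every library (edgeR adjusted p = 0.0459), where Aldh1a3 was not tested. Limma called 2 (Aldh1a2, Stra6). Omitting the low count filter or removing mitochondrial and ribosomal RNA genes gave 2 each (Aldh1a2, Aldh1a3). DESeq2 size factors or an adjusted p under 0.01 gave 0, as did some fits without 1 library (0 to 1). The 1 lower member, Aldh1a1, was called in all fits without 1 library (1 to 1), and 0 were at an adjusted p under 0.01. Pathway genes were 8 higher and 0 lower, becoming 4 higher at an adjusted p under 0.01 and 1 (DESeq2) or 2 (library size only) lower, with 5 to 8 and 0 to 1 without 1 library. Scaling by library size only turned Rara to -0.23 and Rarg to -0.013. The ratio of Aldh1a2 to Aldh1a3 reversed to 0.069 with 2 counts added and ran from -0.69 to 0.56 without 1 library. The other ratio differences ran from 3.05 to 4.13 (Aldh1a2 to Aldh1a1), 2.95 to 4.36 (Aldh1a3 to Aldh1a1), -1.07 to -0.61 (Rarb to Rara), 0.00 to 0.30 (Rarg to Rara) and -1.21 to -0.77 (Rarb to Rarg). Low counts limit Aldh1a3, Stra6 and Crabp1, and the cause of these shifts was not tested.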

Other observations

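Some retinoid genes that did not pass the low count filter had their reads in few libraries. Rbp7, a retinol binding protein gene, had 67 and 53 counts in QZ1-hi replicates 1 and 3 and 0 in the other 6 libraries. Crabp2, the relative of Crabp1 that carries retinoic acid to the receptors, had 1, 21, 1 and 1 counts in QZ1-hi and 22, 1, 0 and 24 in QZ1-lo, in the same order of replicates. None of these genes was tested.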
